A study of Mus musculus with 4 samples.

Results

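The genes described here are 8 genes known from kidney injury: Lcn2, Havcr1, Spp1, Clu, Cd44, Vcam1, Icam1 and Sox4. They were picked by gene symbol from the table of FPKM (fragments per kilobase of transcript scaled to the mapped fragments of the library), which holds 38201 genes, and all 8 were found. RNA was sequenced from cells that bind the lectin DBA, sorted from E18.5 mouse kidneys as ureteric epithelial cells. The 2 DKO libraries came from Esrp1 -/-, Esrp2 -/- embryos, and the 2 control libraries (CTRL) from Esrp1 +/+, Esrp2 -/- embryos, so both groups lacked Esrp2, the paralog of the epithelial splicing regulator Esrp1. The null alleles were carried by every cell of the embryo, and each library was made from RNA pooled from several embryos, so p-values measure only the spread between pools.

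As background, these genes are read as signs of tubule damage in the adult kidney, where an injured tubule cell loses transport genes and gains secreted and surface proteins that attract or bind leukocytes. Lcn2 (neutrophil gelatinase-associated lipocalin), Spp1 (osteopontin) and Clu (clusterin) are secreted. Havcr1 (kidney injury molecule), Cd44, Vcam1 and Icam1 sit on the cell surface, and Sox4 is a transcription factor of the SoxC group. Several of them have a normal place in the developing kidney or in other cells: Lcn2 and Sox4 are made during tubule formation, Cd44 and Icam1 are abundant on leukocytes, and Vcam1 is made by macrophages, stroma and activated endothelium.

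The picture was uneven. Spp1, Cd44, Vcam1 and Icam1 had lower FPKM in both DKO libraries than in both control libraries, Lcn2 and Sox4 had higher FPKM in both DKO libraries, and Clu and Havcr1 overlapped. None of the 8 genes passed the test of difference. A gene counted as called when limma on log2(FPKM + 0.5) gave a Benjamini-Hochberg adjusted p under 0.05 and average FPKM differed at least 2-fold. All 8 genes passed the filter on low values (larger group average above 0.1 FPKM), and 0 of 8 were called, against 4 of 18884 genes tested (0.0212%). At an unadjusted p under 0.05, 3 of the 8 were lower in DKO (Spp1, Cd44 and Vcam1), where 7.35% of all genes were, and none was higher, where 3.35% of all genes were. Without DKO replicate 1 or without DKO replicate 2 that count was 0. The 4 genes below both controls compare with 22.6% of all genes, and the 2 above both with 20.8%. The median log2 fold change of the 8 genes was -0.51, against -0.0092 over all genes tested. With 2 libraries against 2, exact permutation of a single gene's values gives no p below 0.33.

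Esrp1, the gene removed in DKO embryos, had 8.65 and 7.29 FPKM in the DKO libraries, against 27.0 and 31.4 FPKM in the controls. With a log2 fold change of -1.81 (SE 0.152, limma adjusted p = 0.143), it also missed the threshold. The libraries differed in depth and makeup. Control replicate 1 had a depth of 0.507 relative to DKO replicate 1, the other libraries 1.09 to 1.10, and mitochondrial transcripts held 18.6% to 19.1% of the FPKM in DKO libraries and 23.2% to 25.5% in control libraries. Of the 20 ureteric and collecting duct markers all were measured, with sums of 2155 and 2274 FPKM in DKO libraries and 1659 and 2216 FPKM in control libraries, and 7 of them lay above both controls, 3 below both and 10 overlapped (median 0.09). Markers of macrophages, proximal tubule, stroma and endothelium were measured too, and their sums are given further below.

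Promoter sequence is shown for Spp1, Cd44 and Icam1, 3 of the genes that lay below both controls, as the 250 bases before the RefSeq transcript start (GRCm38.p6, the mm10 build). Spp1 is the first of its windows at chr5:104434861-104435110 on the plus strand, Cd44 is chr2:102901666-102901915 on the minus strand, and Icam1 is chr9:21015690-21015939 on the plus strand, each written 5′ to 3′ along its gene. Capitals mark a match to GGAANTTCC, a palindromic form of the NF-kB site.
Spp1: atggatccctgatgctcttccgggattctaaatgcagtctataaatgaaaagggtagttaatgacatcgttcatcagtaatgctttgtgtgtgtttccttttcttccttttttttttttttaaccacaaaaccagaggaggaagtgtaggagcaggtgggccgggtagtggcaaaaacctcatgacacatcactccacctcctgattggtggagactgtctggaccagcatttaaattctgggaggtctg
Cd44: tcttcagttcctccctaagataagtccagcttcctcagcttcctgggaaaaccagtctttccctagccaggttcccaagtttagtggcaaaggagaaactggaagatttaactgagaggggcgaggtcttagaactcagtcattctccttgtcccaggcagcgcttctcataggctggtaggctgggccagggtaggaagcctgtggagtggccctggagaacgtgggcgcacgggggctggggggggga
Icam1: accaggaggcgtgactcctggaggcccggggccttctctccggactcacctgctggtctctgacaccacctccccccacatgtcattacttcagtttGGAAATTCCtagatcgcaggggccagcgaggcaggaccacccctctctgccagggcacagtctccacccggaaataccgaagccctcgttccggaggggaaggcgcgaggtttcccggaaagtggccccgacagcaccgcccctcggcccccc
RefSeq windows matched 6 of the 8 genes, 9 windows in all. NF-kB and AP-1 are transcription factors known to act on injury and adhesion genes. On both strands, neither the NF-kB type motif (GGGA and CC with any 4 bases between them, in 17.6% of 32851 promoters) nor TGANTCA (AP-1, in 6.75%) occurred in these 9 windows. GGAANTTCC, searched after the windows had been read and found in 0.813% of promoters, occurred once, in Icam1, starting 153 bases before the transcript start (position -153). It overlaps no match of the other motifs. These matches are descriptions of letters only.

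Levels spread over a wide range. In DKO libraries the order by mean FPKM (± SD, n = 2) was Clu 87.8 ± 3.87, Spp1 66.8 ± 14.4, Sox4 61.1 ± 1.51, Lcn2 60.8 ± 10.8, Vcam1 9.20 ± 1.17, Cd44 3.96 ± 0.332, Icam1 2.97 ± 0.202 and Havcr1 0.309 ± 0.391. In control libraries it was Spp1 210.1 ± 90.1, Clu 88.9 ± 29.5, Sox4 55.2 ± 0.117, Lcn2 49.6 ± 2.75, Vcam1 15.3 ± 2.30, Cd44 8.00 ± 2.30, Icam1 4.44 ± 0.195 and Havcr1 0.619 ± 0.370. Spp1 was thus first in the controls, whereas in DKO libraries its range overlapped those of Sox4 and Lcn2, which also overlapped each other. All other neighbours in these orders kept separate ranges across the libraries of a group.

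**Figure D1:**
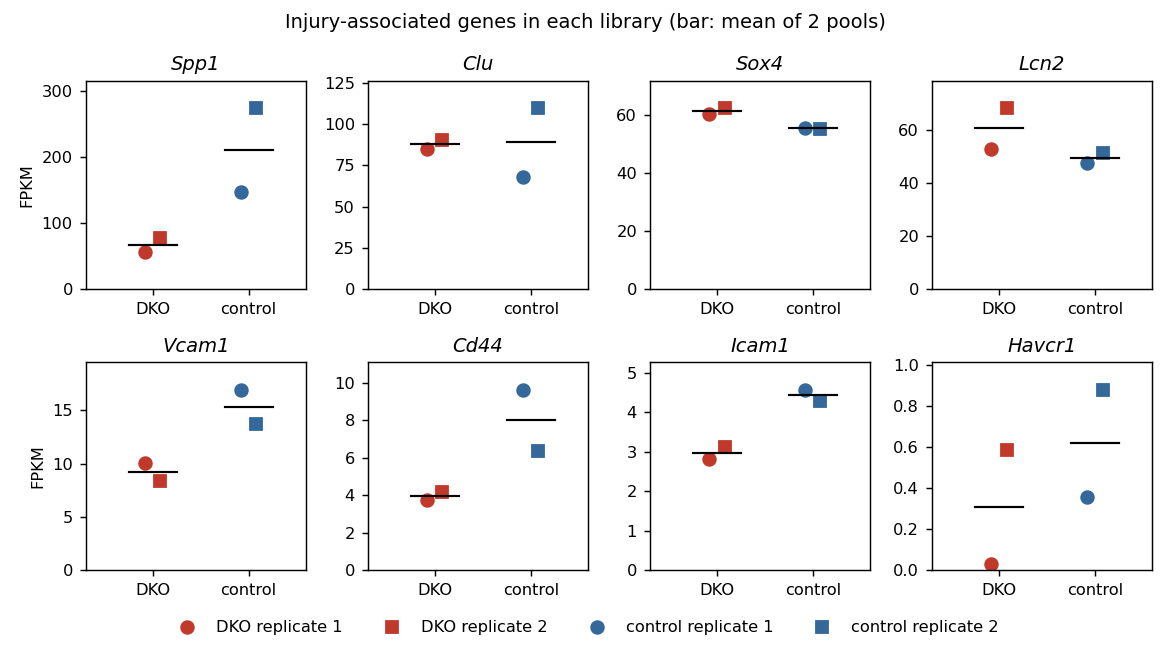
FPKM of the 8 genes (vertical axes from 0, a scale for each gene) in DKO replicates 1 and 2 (red) and control replicates 1 and 2 (blue), with a bar at the mean of each group. Spp1, Vcam1, Cd44 and Icam1 lie lower in both DKO libraries, Sox4 and Lcn2 lie slightly higher, and the groups overlap for Clu and Havcr1.

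Among the secreted proteins, Spp1 showed the largest difference of the 8 genes. Spp1 (ENSMUSG00000029304, chromosome 5, 104435118 to 104441050, plus strand in GENCODE M21 on mm10) encodes osteopontin, a phosphoprotein that binds integrins and CD44 and is made by tubule cells and macrophages. It had 56.6 and 77.0 FPKM in DKO libraries, against 146 and 274 FPKM in control libraries. Both DKO values lay far below both controls, which also differed from each other, control replicate 1 standing at 0.535 of control replicate 2. The log2 fold change was -1.59 (SE 0.33, 95% interval -2.45 to -0.73, limma adjusted p = 0.380). Leaving out each library in turn gave -2.04 to -1.14.

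Lcn2 (ENSMUSG00000026822, chromosome 2, 32384633 to 32388252, minus strand) encodes a lipocalin that carries iron-binding siderophores and is made by ureteric and collecting duct cells as well as by neutrophils. It had 53.1 and 68.4 FPKM in DKO libraries, against 47.7 and 51.5 FPKM in control libraries. The lower DKO library lay just above the higher control, and the log2 fold change was 0.28 (SE 0.151, 95% interval -0.11 to 0.67, limma adjusted p = 0.589), with 0.10 to 0.46 when a library was left out.

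Clu (ENSMUSG00000022037, chromosome 14, 65968483 to 65981547, plus strand) encodes clusterin, an extracellular chaperone. It had 85.1 and 90.5 FPKM in DKO libraries, which fell between 68.1 and 109.8 FPKM in control libraries. The log2 fold change was 0.02 (SE 0.238, 95% interval -0.59 to 0.64, limma adjusted p = 0.980). It turned with the choice of library, at -0.32 without control replicate 1 and 0.36 without control replicate 2.

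Of the surface proteins, Cd44 had average FPKM 0.495 of the control level. Cd44 (ENSMUSG00000005087, chromosome 2, 102811141 to 102901665, minus strand) encodes a receptor for hyaluronan and osteopontin, whose variable exons are spliced differently in epithelia and mesenchyme. FPKM per gene adds its isoforms together, and the annotation lists 9 transcripts, 8 of them coding, over 19 merged exons. Cd44 had 3.73 and 4.196 FPKM in DKO libraries, against 9.63 and 6.38 FPKM in control libraries. The DKO libraries were close to each other and both under the lower control. The log2 fold change was -0.91 (SE 0.248, 95% interval -1.55 to -0.26, limma adjusted p = 0.384), with -1.18 to -0.63 when a library was left out.

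Vcam1 (ENSMUSG00000027962, chromosome 3, 116109949 to 116129688, minus strand) encodes the adhesion protein bound by integrins with the Itga4 chain. It had 10.0 and 8.37 FPKM in DKO libraries, against 16.9 and 13.7 FPKM in control libraries. The groups stood apart, with a log2 fold change of -0.70 (SE 0.175, 95% interval -1.16 to -0.25, limma adjusted p = 0.380). Leaving out each library gave -0.85 to -0.55.

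Icam1 (ENSMUSG00000037405, chromosome 9, 21015985 to 21028817, plus strand) encodes the adhesion protein bound by the leukocyte integrins with the Itgal and Itgam chains. It had 2.83 and 3.12 FPKM in DKO libraries, against 4.58 and 4.30 FPKM in control libraries. Both groups were tight and did not overlap. The log2 fold change was -0.51 (SE 0.197, 95% interval -1.02 to 0.00152, limma adjusted p = 0.466), and -0.57 to -0.45 without each library. The locus deposited for Icam1 also spans its neighbours Icam4 and Icam5, and Icam4 had at most 0.240 FPKM in any library.

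Havcr1 (ENSMUSG00000040405, chromosome 11, 46735080 to 46779578, plus strand) encodes a phosphatidylserine receptor that injured proximal tubule cells display. It was close to absent, at 0.0330 and 0.586 FPKM in DKO libraries and 0.357 and 0.881 FPKM in control libraries. At this level the DKO libraries differed from each other more than the groups did. The log2 fold change was -0.52 (SE 0.454, 95% interval -1.69 to 0.66, limma adjusted p = 0.708), and leaving out a library brought it as near to 0 as -0.0034. Its average was at least 2-fold lower in DKO, as were those of Spp1 and Cd44, so 3 of 8 genes met the fold alone, where 9.91% of all genes did.

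Sox4 (ENSMUSG00000076431, chromosome 13, 28948919 to 28953713, minus strand) is an intronless gene for a transcription factor active in the developing nephron. It was the steadiest of the 8, at 60.1 and 62.2 FPKM in DKO libraries and 55.3 and 55.1 FPKM in control libraries. The DKO values were slightly higher without overlap, and the log2 fold change was 0.15 (SE 0.0912, 95% interval -0.09 to 0.38, limma adjusted p = 0.639). The whole interval lies within a 2-fold difference in either direction. The locus deposited for Sox4 also covers Gm26735, a noncoding gene on the other strand.

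**Figure D2:**
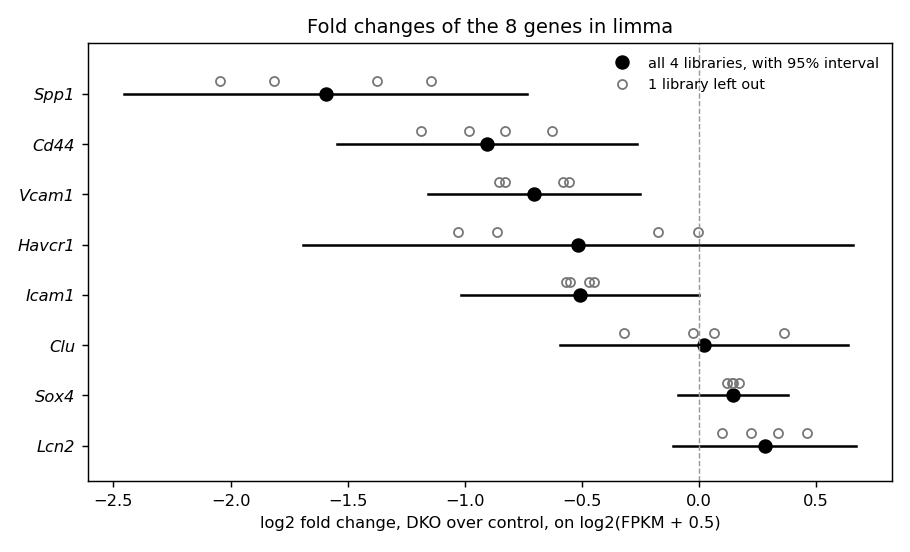
Log2 fold change of DKO over control on log2(FPKM + 0.5) for the 8 genes (horizontal axis), with the 95% interval from limma (line) and the values after leaving out each library (open circles). The intervals of Spp1, Cd44 and Vcam1 lie below 0, and the other 5 intervals include 0.

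Genes that share a family with these 8 split in direction, as the 8 genes themselves did. Of 9 relatives tested, 3 lay below both controls, 3 above both and 3 overlapped, with a median log2 fold change of 0.13. Part of this split rests on low values. Havcr2 (below both controls) and Madcam1 and Timd2 (above both) had at most 0.413 FPKM in any library. They were named after their values were seen. Sox11, the SoxC gene nearest to Sox4 in role, had 45.3 and 47.6 FPKM in DKO libraries, against 46.4 and 38.9 FPKM in control libraries, and Sox12 had 19.9 and 19.1 FPKM, against 18.7 and 18.5 FPKM. Both differed by less than 0.2 on the log2 scale. Lyve1, a hyaluronan receptor related to Cd44 that lymphatic endothelium and tissue macrophages carry, had 21.0 and 19.5 FPKM in DKO libraries, against 90.5 and 37.4 FPKM in control libraries (log2 fold change -1.50, limma adjusted p = 0.384).

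The binding partners of the surface and secreted proteins were grouped in lists. All 5 integrin chains tested of the leukocyte set, which bind Vcam1 and Icam1, lay below both controls, with a median log2 fold change of -0.97 (-0.59 without control replicate 1) and none called. Itga4 had 5.88 and 5.10 FPKM in DKO libraries, against 11.8 and 6.01 FPKM in control libraries. Itgal had 2.17 and 2.16 FPKM, against 6.97 and 3.52 FPKM, and Itgam 2.2002 and 2.08 FPKM, against 6.40 and 3.85 FPKM. For Itga4, Itgal and Itgam control replicate 1 was well above control replicate 2, which did not hold for every chain of the set. Of 9 integrin chains that bind osteopontin, a list that shares Itga4 with the leukocyte set, 2 lay below both controls (Itga4 and Itgb6, Itgb6 being named after its values were seen), 4 above both and 3 overlapped, with a median of 0.11. The difference between these lists was not tested. Itgb1 had 131 and 136 FPKM in DKO libraries, against 118 and 132 FPKM in control libraries, and Itgav had 45.5 and 47.3 FPKM, against 37.9 and 45.2 FPKM. Itgb5 had 46.4 and 52.4 FPKM in DKO libraries, against 44.5 and 51.4 FPKM in control libraries.

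The genes of hyaluronan turnover and Cd44 function also stayed near level, with 1 of 14 tested below both controls, 2 above both and 11 overlapping (median 0.09). Ezr and Rdx, which link Cd44 to actin, had 136 and 147 FPKM and 74.6 and 75.1 FPKM in DKO libraries, against 106 and 160 FPKM and 71.2 and 76.8 FPKM in control libraries. Mmp14, a membrane protease that cleaves Cd44, had 72.7 and 75.6 FPKM in DKO libraries, against 57.4 and 62.2 FPKM in control libraries. Mmp14 lay above both controls (log2 fold change 0.31, limma adjusted p = 0.408), in the opposite direction to Cd44.

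Of 7 genes tested whose products bind Lcn2 or Clu, most of them uptake receptors, 4 lay below both controls, 1 above and 2 overlapped (median -0.73). The 4 were the proximal tubule receptors Lrp2 and Cubn, the macrophage receptor Trem2 and the secreted protease Mmp9, a partner of Lcn2 and no receptor. Mmp9 had the lowest log2 fold change of the list, -1.63, with 2.54 and 2.55 FPKM in DKO libraries, against 14.8 and 5.31 FPKM in control libraries, and Trem2 had 5.10 and 3.27 FPKM, against 14.6 and 8.21 FPKM. Trem2, Cubn and Mmp9 were named after their values were seen. Lrp2, the megalin receptor of the proximal tubule that retrieves filtered Lcn2, had 37.3 and 29.1 FPKM in DKO libraries, against 59.3 and 63.0 FPKM in control libraries (log2 fold change -0.88, limma adjusted p = 0.365). Vldlr, a Clu receptor, had 63.6 and 61.0 FPKM in DKO libraries, against 55.0 and 50.9 FPKM in control libraries, and the Lcn2 receptor Slc22a17 had 24.2 and 23.6 FPKM, against 26.2 and 19.8 FPKM.

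A further 36 genes associated with kidney injury were measured, not all of them made by tubule cells. They split: 10 lay below both controls, 6 above both and 20 overlapped, none was called, and the median log2 fold change was -0.05. The most abundant were near level. Igfbp7, a cell cycle arrest marker, had 179 and 191 FPKM in DKO libraries, against 157 and 210 FPKM in control libraries. Vim, the intermediate filament of mesenchyme and of dedifferentiated tubule cells, had 99.1 and 142 FPKM, against 84.6 and 111 FPKM, and Dcdc2a had 88.0 and 83.4 FPKM, against 65.0 and 102 FPKM. Some genes chosen after their values were seen show both directions. Cdkn1a, a cell cycle inhibitor, had 21.4 and 21.7 FPKM in DKO libraries, against 43.8 and 36.2 FPKM in control libraries, and Atf3, a stress transcription factor, had 4.69 and 1.80 FPKM, against 30.7 and 10.2 FPKM. S100a8, a neutrophil protein, had 37.0 and 25.3 FPKM, against 60.0 and 63.9 FPKM. On the other side were Sox9, a ureteric tip and repair factor, at 45.4 and 44.5 FPKM in DKO libraries, against 38.9 and 32.7 FPKM in control libraries, and Prom1 at 59.1 and 60.0 FPKM, against 38.8 and 49.2 FPKM. None of these 5 genes passed the test (limma adjusted p 0.365 to 0.455).

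Genes of tubule function that injured tubules lose mostly lay lower. Of 12 such genes 9 lay below both controls, 3 overlapped, none was called and the median log2 fold change was -0.92. Slc34a1, the phosphate transporter of the proximal tubule, had 53.1 and 41.8 FPKM in DKO libraries, against 97.2 and 101 FPKM in control libraries. Slc12a1, the salt transporter of the thick ascending limb, had 74.6 and 87.1 FPKM, against 67.7 and 154 FPKM. Of these 12 genes 11 are also in the marker lists of the proximal or distal tubule, so this result is not separate from that of those lists.

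NF-kB is the transcription factor through which inflammatory signals raise Vcam1, Icam1 and Lcn2. Of 26 other genes of its pathway and targets, 15 lay below both controls, 1 above both and 10 overlapped, with none called and a median of -0.53, which was -0.32 without control replicate 1 and -0.87 without control replicate 2. The most abundant subunits overlapped between groups, with Nfkb1 at 17.4 and 19.4 FPKM in DKO libraries, against 19.2 and 18.3 FPKM in control libraries, and Rela at 17.7 and 16.9 FPKM, against 20.9 and 17.1 FPKM. The other subunits, named after their values were seen, were less abundant. Relb had 2.21 and 2.12 FPKM in DKO libraries, against 3.84 and 3.28 FPKM in control libraries, below both controls but not past the test (log2 fold change -0.60, limma adjusted p = 0.438), while Nfkb2 and Rel had log2 fold changes of -0.044 and -0.43. Sod2, a mitochondrial antioxidant enzyme and target, had 25.2 and 25.4 FPKM, against 30.1 and 32.7 FPKM. Among targets chosen after their values were seen, the chemokine Ccl2 had 5.25 and 3.96 FPKM in DKO libraries, against 43.7 and 12.6 FPKM in control libraries, and the inhibitor Tnfaip3 had 3.50 and 2.99 FPKM, against 13.5 and 6.28 FPKM. Nfkbia, more abundant and chosen in the same way, overlapped between groups. It had 18.0 and 16.7 FPKM in DKO libraries, against 18.6 and 15.1 FPKM in control libraries.

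**Figure D3:**
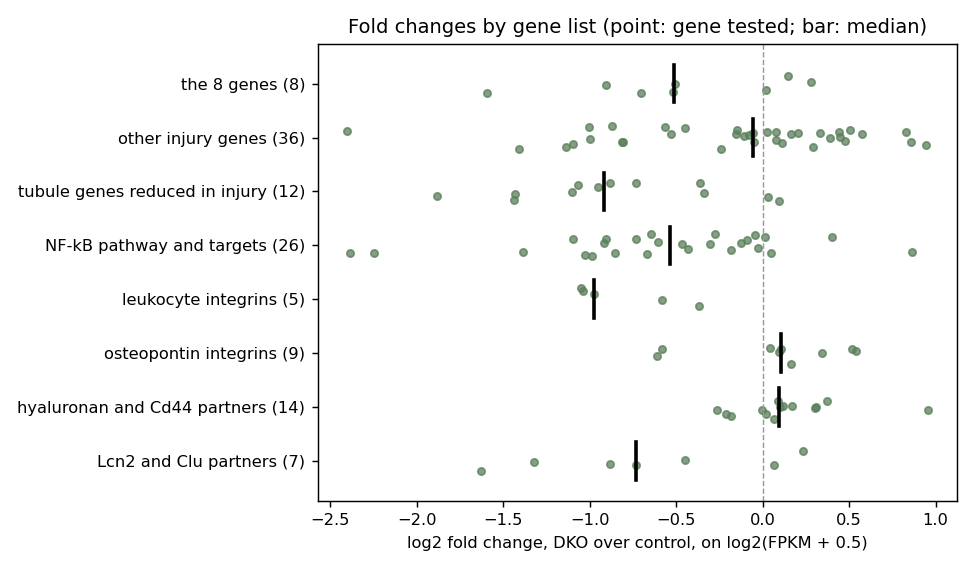
Log2 fold change of DKO over control on log2(FPKM + 0.5) for each gene tested (points) of the 8 genes and of the lists of related genes, with the number of genes in brackets and a bar at each median. The medians of the leukocyte integrins (-0.97), of tubule genes lost in injury (-0.92) and of Lcn2 and Clu partners (-0.73) lie below that of the 8 genes (-0.51), and those of osteopontin integrins (0.11) and hyaluronan genes (0.09) lie near 0.

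Marker lists of other cell types also differed between the groups, in both directions. All 17 macrophage markers lay below both controls, with none at 0 and a median log2 fold change of -1.47, or -0.97 without control replicate 1. Their summed level was 648 and 618 FPKM in DKO libraries, against 2500 and 1215 FPKM in control libraries, and C1qb, a complement gene of tissue macrophages, had 110 and 107 FPKM, against 424 and 202 FPKM. Control replicate 1 held the highest macrophage sum and also the highest Cd44, Vcam1 and Icam1, but the lower Spp1 of the controls. The 16 proximal tubule markers also all lay below both controls (median -0.86), at sums of 372 and 337 FPKM in DKO libraries, against 645 and 751 FPKM in control libraries. For these, for the ureteric, loop and distal, stroma and endothelium sums, and for Spp1, Clu and Lcn2, control replicate 2 was the higher control. They include Gatm, the only called gene of any list, with 21.7 and 20.9 FPKM in DKO libraries, against 74.3 and 78.5 FPKM in control libraries (log2 fold change -1.82, limma adjusted p = 0.0431). The 11 markers of the loop and distal tubule, where Spp1 is strongly made, summed to 275 and 290 FPKM in DKO libraries, against 332 and 520 FPKM in control libraries, with 4 below both controls and 7 overlapping.

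Stroma and endothelium, which can make Vcam1, had higher marker levels in DKO libraries. All 16 stroma markers lay above both controls (median 0.79), with sums of 279 and 426 FPKM in DKO libraries, against 142 and 190 FPKM in control libraries, and 10 of 14 endothelium markers did so too (median 0.56, or 0.20 without control replicate 1), with sums of 260 and 323 FPKM, against 140 and 242 FPKM. Of 9 lymphocyte and granulocyte markers tested, 5 lay below both controls and 1 above, with sums of 18.3 and 15.2 FPKM, against 27.5 and 27.8 FPKM. The neutrophil granule genes Elane and Mpo were listed at 0 in all libraries. Other granule genes of the list, named after their values were seen, were detected. Ngp had 3.64 and 1.21 FPKM in DKO libraries, against 6.43 and 6.50 FPKM in control libraries. Ltf had 0.897 and 0.762 FPKM, against 0.901 and 2.01 FPKM, and Camp had 1.58 and 0.386 FPKM, against 0.307 and 3.10 FPKM. The part of any of these cells in the values of the 8 genes was not tested, and in RNA from sorted pools fewer cells of a type and less RNA per cell cannot be told apart.

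**Figure D4:**
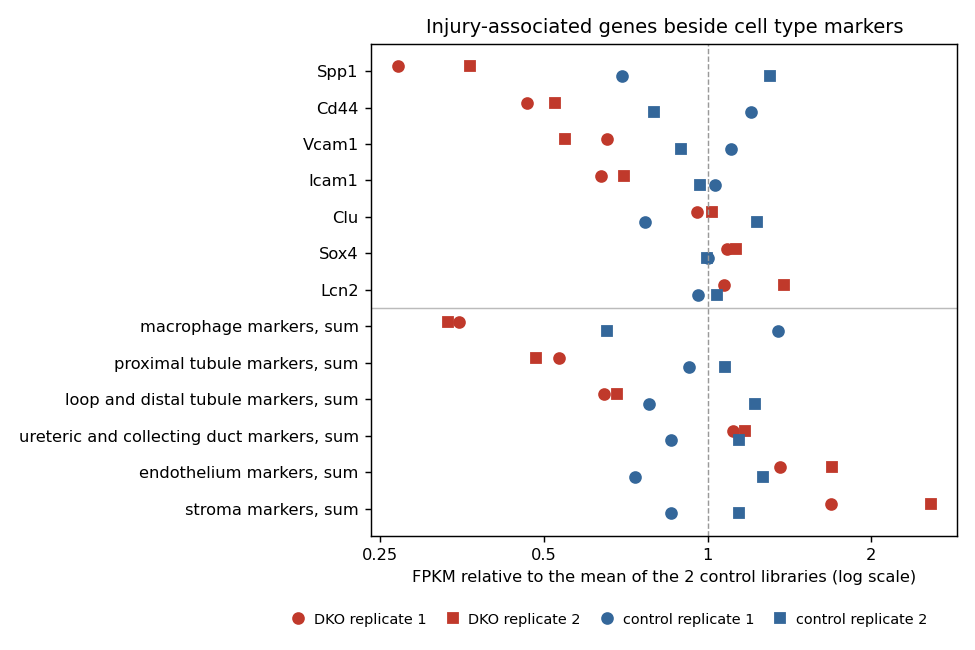
FPKM relative to the mean of the 2 control libraries (horizontal log axis) for 7 of the 8 genes (Havcr1, at low level, is left out) and for the summed markers of 6 cell types, in DKO replicates (red) and control replicates (blue). Cd44, Vcam1 and Icam1 were higher in control replicate 1 than in control replicate 2, as the macrophage sum was, and Spp1, Clu, Lcn2 and the other 5 sums were higher in control replicate 2.

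The genes whose pattern was most like each of these were sought among 11148 genes with a mean of at least 5 FPKM, by the Euclidean distance between centred log2(FPKM + 0.5) over the 4 libraries. For Spp1 they were S100g (distance 0.365), a calcium-binding protein of the distal tubule, Fbp1 (0.384), a gluconeogenic enzyme of the proximal tubule, and Hgd (0.391), an enzyme of tyrosine breakdown. S100g had 144 and 215 FPKM in DKO libraries, against 310 and 561 FPKM in control libraries. For Cd44 they were Ckb (0.0432), Trim21 (0.0748) and Frmd4b (0.0876), and Ckb, a creatine kinase, had 20.2 and 23.2 FPKM in DKO libraries, against 49.0 and 32.9 FPKM in control libraries. For Vcam1 they were Bhlhe40 (0.0826), Mitf (0.0885) and Renbp (0.0964), the first 2 being transcription factors. The nearest patterns to Lcn2 were Bloc1s2b, Schip1 and Cenpq, to Clu Dnajc17, Cd9 and Ndufa9, and to Sox4 9430016H08Rik, Mob2 and Irx3. With 4 libraries such likeness is a description. Among the 8 genes themselves, Sox4 and Lcn2 were closest (0.272), followed by Vcam1 with Icam1 (0.359) and Vcam1 with Cd44 (0.393), while Spp1 and Lcn2 were farthest apart (1.96).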

How the data were processed

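RNA of DBA-sorted E18.5 kidney cells was measured in 2 DKO and 2 control libraries, each from pooled embryos. The authors mapped strand-specific reads to mm10 with an Ensembl annotation and deposited FPKM per gene. TopHat 1.4.1 and Cuffdiff 2.2.1 are the tools in the submitters' processing notes. The scaling between libraries is not given there. FPKM columns summed to 581976 and 617195 in DKO libraries and to 678178 and 636684 in control libraries, with 18174 to 19275 genes above 0. The table's 2 empty lines were left out. The deposited group averages were not used. Columns named KD were matched to the DKO labels by number.

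FPKM are not counts, so limma 3.58.1 (R 4.3.3, variance trend, two-sided) was fitted to log2(FPKM + 0.5) of all 18884 genes with a larger group average above 0.1 FPKM. Fold changes on this scale understate changes of low genes. The test was tried on simulated data. Relative depth was the most frequent ratio of FPKM in DKO replicate 1 to FPKM in the other library. It was taken over genes above 0 and under 0.3 FPKM in both. Tables were made with Python 3.11.15. Sequences are from RefSeq (GRCm38.p6), coordinates from GENCODE M21, later than the annotation of the authors.

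The 8 genes, the lists and the alternatives were chosen with earlier results of these data known. Genes named besides the 8 are up to 3 of a list with the highest mean FPKM, the 3 nearest patterns, Esrp1, Esrp2, called list genes, and those stated as chosen later. Alternatives were other pseudocounts, filters, scalings and variance trends, the replicate block and leaving out each library.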

Additional observations from a re-analysis of the deposited data

How the results depend on the processing

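None of the 8 genes was called in any setting run. Across 111 fits of their log2 fold changes, 109 kept direction, and the smallest limma adjusted p was 0.0649, for Spp1 with the replicate block. The numbers 1 and 2 are not stated to pair libraries, and deviations of same-numbered libraries correlated at 0.105 across genes. With that block 16 genes were called in place of 4, none among the 8. Called genes numbered 1 without the filter on low values, 2 without the variance trend and 8 with scaling that left out mitochondrial transcripts. They numbered 0 to 0 without each library, where 672 to 4531 genes had an unadjusted limma p under 0.05. TPM scaling moved the median of all genes by 0.12 on the log2 scale, and 5 of the 8 genes then had an unadjusted limma p under 0.05, in place of 3, Lcn2 and Sox4 (higher in DKO) being added. Without a library that number was 0 to 4. As before, 6 of the 8 genes did not overlap under each scaling. Leaving out a library, chosen after seeing the data, gave 6 to 8 such genes, but then 31.2% to 43.5% of all genes also lay below and 30.5% to 37.3% above. Clu lay below the remaining control without control replicate 1 and above it without control replicate 2. Single-gene log2 fold changes were not followed through the alternatives for every gene named here, Nfkbia and Camp being among those not followed. Among the genes followed, log2 fold changes that changed sign when a library was left out were those of Aqp2 (-0.15 to 1.11), Cd9 (-0.33 to 0.34), Clu (-0.32 to 0.36), Dcdc2a (-0.24 to 0.39), Dnajc17 (-0.32 to 0.35), Esrp2 (-0.74 to 0.12), Ezr (-0.18 to 0.42), Igfbp7 (-0.18 to 0.23), Itgb5 (-0.0595 to 0.15), Ndufa9 (-0.32 to 0.33), Nfkb1 (-0.10 to 0.0453), Rdx (-0.0375 to 0.0718), Rel (-0.87 to 0.00789), Rela (-0.27 to 0.0109), Slc12a1 (-0.93 to 0.25) and Slc22a17 (-0.13 to 0.26). Nfkb1 turned to 0.10 with TPM scaling and 0.00250 without mitochondrial transcripts, and Rela and Nfkb2 to 0.00224 and 0.0827 with TPM scaling. The median of the 8 genes lay between -0.57 and -0.23 (without DKO replicate 1). Those of family relatives lay between 0.05 and 0.16, of osteopontin integrins between 0.02 and 0.29 and of hyaluronan genes between 0.03 and 0.15, and those of the other injury genes (-0.18 to 0.08) and ureteric markers (-0.21 to 0.27) changed sign. Without control replicate 1 the endothelium median was 0.20 and the macrophage median -0.97. The cause was not tested. The depth of control replicate 1 limits its low values, such as Havcr1.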

Other observations

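Esrp2, reported missing in both groups by genotype, still gave 1.35 and 0.519 FPKM in DKO libraries and 1.72 and 0.802 FPKM in control libraries. The chemokine gene Ccl20, the only target on the NF-kB list that lay above both controls and chosen after its values were seen, had 0.478 and 0.346 FPKM in DKO libraries and was listed at 0 in both control libraries. Timp1, an inhibitor of matrix proteases, had 1.74 and 2.40 FPKM in DKO libraries, against 0.921 and 0.890 FPKM in control libraries, a difference that did not pass the test (log2 fold change 0.86, limma adjusted p = 0.394), and it too was chosen after its values were seen. Among ureteric markers, Calb1 had 266 and 303 FPKM in DKO libraries, against 181 and 181 FPKM in control libraries, and Gfra1 had 220 and 238 FPKM, against 185 and 179 FPKM, both above both controls. The 3 markers below both controls, named after their values were seen, were Scnn1a, a sodium channel subunit, at 6.15 and 5.16 FPKM, against 12.2 and 15.7 FPKM (log2 fold change -1.22, limma adjusted p = 0.365), Wnt9b at 22.9 and 22.1 FPKM, against 25.8 and 30.4 FPKM, and Elf5 at 24.0 and 24.6 FPKM, against 24.6 and 35.6 FPKM. Aqp2, the water channel of the collecting duct, had 339 and 374 FPKM in DKO libraries, against 165 and 393 FPKM in control libraries.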
